A study of Mus musculus with 145 samples.

Results

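The comparison described here sets GFP+ against GFP- cells within the MHCII high medullary epithelium of the mouse thymus. Its members are the 6 arrays, of 145 in the series, whose titles name MEChi.GFP+.Adult (3 arrays) or MEChi.GFP-.Adult (3 arrays), and they were found by those titles. The series is an atlas of sorted mouse cell populations measured on Affymetrix gene arrays. Both groups came from the thymic medulla of C57BL/6 mice aged 5 weeks and of mixed sex. Both were sorted as CD45- Ly51- MHCIIhi, and then as GFP+ or GFP-, and the gate named no epithelial surface marker. Another group of 3 arrays, MEChi.GFP+.Adult.KO, had the same strain, age and GFP+ gate, and its titles added KO. The labels name neither the gene knocked out nor the promoter that drives GFP, and they do not say whether the cells of an array were pooled from several mice.

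Medullary thymic epithelial cells show developing T cells samples of the proteins made elsewhere in the body. Those with much MHC class II include the cells that make AIRE, a nuclear protein needed for the thymic expression of many genes otherwise restricted to single tissues. Other medullary cells carry programs of peripheral epithelia, among them keratinocytes, tuft cells, secretory cells and microfold cells, and are known as mimetic cells.

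The deposited values were intensities on a linear scale, and they are given here per array in the order of replicates 6, 7 and 8 (1, 2 and 3 for the knockout). The median intensity of the 9 arrays lay between 135.2 and 143.3. A probe set was tested where the highest group mean reached an intensity of 140.5, which held for 13889 of 24922 probe sets. Differences are log2 GFP+ minus GFP- with their SE (n = 3 arrays per group), tested with limma across all tested probe sets and called at an adjusted p under 0.05. The labels do not tie the arrays of a group to different mice. The p-values thus cover no more than the spread among these arrays, which may be technical, and the number of arrays limits the precision. Of the probe sets tested, 6865 (49.4%) were called, 4012 (28.9%) higher and 2853 (20.5%) lower in GFP+ cells. With a difference of at least 2-fold as well, 1461 (10.5%) were called, of which 885 (6.37%) were higher and 576 (4.15%) lower. The median difference over all tested was 0.06. Under quantile normalization 3626 were called higher and 3359 lower, with a median of 0.004, so the excess of higher calls was smaller. A gene that reaches the level for a test only in the group where it is high had to differ. Gene lists in which more than 1 tested member was that bright in just 1 of the 2 groups, or in which fewer than 50% of the members with a probe set were tested, are therefore counted over all their members with a probe set, in a fit of all 24922 probe sets without the filter. That fit called 20.1% higher and 16.2% lower, with a median difference of -0.02, and counts from it are marked as unfiltered. Counts of the other lists are to be set beside 28.9% higher and 20.5% lower.

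Aire, the marker of the GFP+ cells, was higher on all GFP+ arrays than on any GFP- array. Its intensities were 3605, 5203 and 4457 in GFP+ cells and 570, 772 and 495 in GFP- cells. The groups did not overlap, and the difference was 2.86 ± 0.17 (7.26-fold, adjusted p = 1.4e-06). The knockout GFP+ arrays read 3893, 4039 and 4387, which differed from the GFP+ arrays by -0.09 ± 0.17 (adjusted p = 0.75). Since the labels name no knocked-out gene, and a probe set can lie outside a deleted part, the Aire level checks nothing about that label. The RefSeq sequence just upstream of the Aire start (GRCm38.p6, chr10:78043611-78043710, minus strand) is shown because the comparison turns on this gene. Capitals mark a match to the letters TATAAA, which 6.5% of the promoters of tested genes held on the gene's strand within 250 bases before to 50 bases after the start.
Aire: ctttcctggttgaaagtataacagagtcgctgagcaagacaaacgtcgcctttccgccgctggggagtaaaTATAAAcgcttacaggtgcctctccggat

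The neighbours of Aire on chromosome 10 rose with it. Pfkl, Aire, Dnmt3l and Icosl followed each other among the tested genes, and each was higher in GFP+ cells by at least 2-fold. Dnmt3l encodes a cofactor of DNA methyltransferases. It read 726, 935 and 967 in GFP+ cells against 99, 71 and 72 in GFP- cells, a difference of 3.44 ± 0.15 (adjusted p = 2.5e-07). Icosl, the ligand of the T cell costimulator ICOS, read 7555, 8006 and 9373 against 2299, 2475 and 3203, a difference of 1.65 ± 0.13 (adjusted p = 6e-06). Pfkl, a subunit of the glycolytic enzyme phosphofructokinase named after its values were seen, read 2636, 2466 and 3429 against 1087, 1050 and 1834, a difference of 1.14 ± 0.20 (adjusted p = 0.00097). In none of the 3 did the groups overlap, and 59.5% of all tested probe sets did not overlap either. Of the 885 probe sets called at least 2-fold higher, 883 did not overlap. The choice of such a run thus nearly set this outcome, which adds nothing to the differences.

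G6pc2, which encodes the islet protein IGRP and was also named after its values were seen, read 7430, 7252 and 8247 in GFP+ cells and 1037, 1273 and 1313 in GFP- cells. The difference was 2.67 ± 0.11 (6.35-fold, adjusted p = 2.5e-07). Its levels in the knockout GFP+ cells were 7979, 7738 and 7707. On the 13 arrays of the other thymic epithelial groups of the series, its intensity lay between 24.3 and 35.1, below every GFP- array. A published Aire reporter strain carries a fusion of IGRP with GFP. The labels do not say whether that strain was used, and the part of a transgene in the G6pc2 level was not tested. Nostrin and Spc25, which lie next to G6pc2 on chromosome 2 and were likewise named after their values were seen, differed by 1.34 ± 0.17 and 1.58 ± 0.24 (adjusted p = 0.00013 and 0.00034).

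The 12 largest rises in GFP+ cells were in Olfr1136 (an odorant receptor), Tvp23a, Dnmt3l, Cldn13 (a claudin), Reg4 (a secreted lectin of the gut), Tdo2 (the tryptophan dioxygenase of liver), Crhbp (the binding protein of corticotropin-releasing hormone), Kmo (kynurenine monooxygenase), Ucma (a cartilage matrix protein), Tmprss11d (an airway protease), Gmnc (a regulator of multiciliated cells) and Calb2 (a neuronal calcium-binding protein). Their differences ran from 2.90 for Calb2 to 3.78 for Olfr1136, and the rule that chose them required that the GFP+ and GFP- arrays do not overlap.

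Olfr1136 read 212, 267 and 233 in GFP+ cells and 18.3, 18.6 and 15.05 in GFP- cells (3.78 ± 0.13, adjusted p = 9.2e-08). Tvp23a read 1800, 2067 and 2104 against 163, 232 and 148 (3.48 ± 0.18, adjusted p = 7.2e-07). Tdo2 read 547, 686 and 752 against 83.1, 79.3 and 66.1 (3.11 ± 0.16, adjusted p = 7.2e-07). The groups overlapped in none of the 3, which the rule that chose them required. Olfr1136 and Tdo2 lay below the median level in GFP- cells, where the table used here gives no detection limit. With 32 added to every intensity before the log, all 12 remained called and the difference of Olfr1136 became 2.45, that of Tmprss11d 2.19, that of Kmo 2.34 and that of Gmnc 2.30.

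The same 12 genes differed among themselves in the knockout GFP+ cells. That comparison shares the GFP+ arrays with the first, and the 12 were chosen for high values on those arrays, so their knockout values are a description with no test. The shared arrays limit every knockout value and count given below too. Of all tested probe sets, 19.1% were called between knockout and GFP+ cells, 9.4% higher and 9.66% lower in the knockout. Calb2 read 620, 915 and 778 in GFP+ cells and 32.9, 35.3 and 33.1 in knockout cells, a knockout minus GFP+ difference of -4.50. Reg4, Gmnc and Tdo2 were also lower in the knockout, by -3.72, -3.37 and -3.25. Olfr1136 was higher there, at 719, 866 and 748 (1.71), and so were Dnmt3l (0.73) and Crhbp (0.68). Tvp23a, Cldn13, Kmo, Ucma and Tmprss11d had knockout minus GFP+ differences between -0.73 and 0.10.

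**Figure D1:**
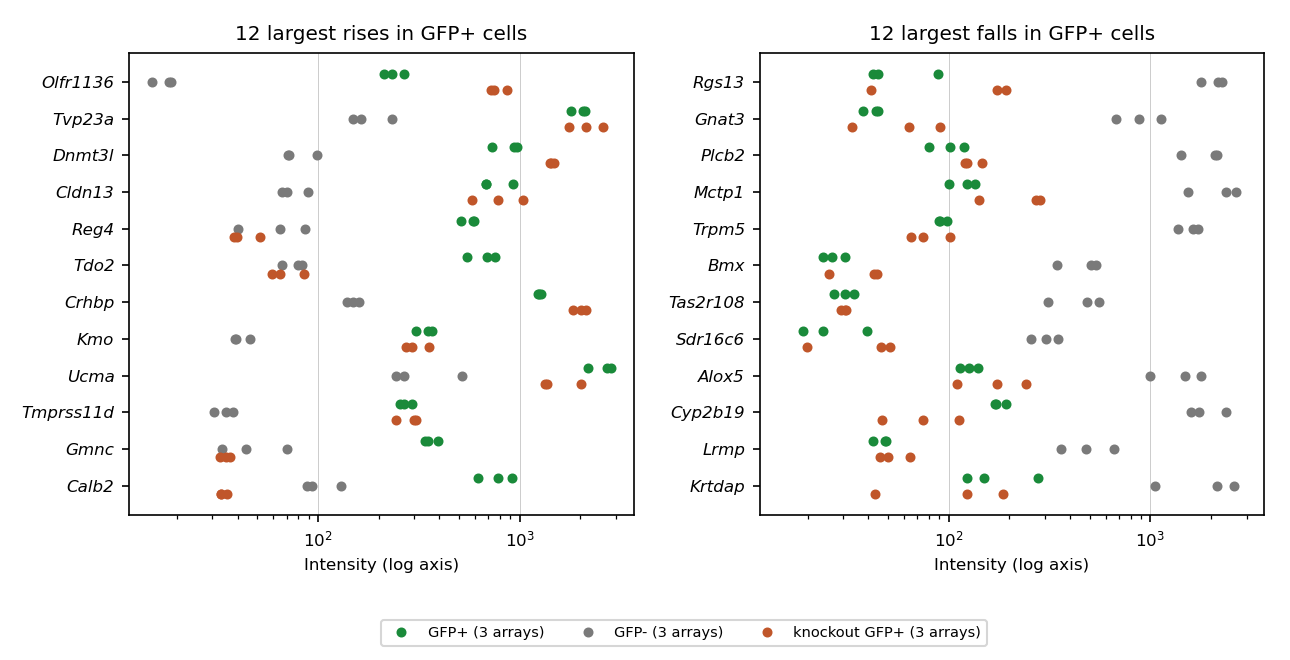
Intensity on each array (log axis, 3 arrays per group) of the 12 largest rises and 12 largest falls in GFP+ against GFP- cells; each point is 1 array and colour gives the group. The rule that chose the genes required that green GFP+ and grey GFP- points do not overlap. The orange knockout points of Reg4, Tdo2, Gmnc and Calb2 lie beside or below the grey ones.

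Of the 12 largest falls, 7 were in genes of the tuft cell list. The 12 were Rgs13 (a regulator of G protein signalling), Gnat3 (the taste G protein gustducin), Plcb2 (the phospholipase of taste signalling), Mctp1, Trpm5 (the cation channel of taste cells), Bmx (a tyrosine kinase), Tas2r108 (a bitter taste receptor), Sdr16c6, Alox5 (the lipoxygenase that starts leukotriene synthesis), Cyp2b19 (a cytochrome P450 of keratinocytes), Lrmp and Krtdap (a keratinocyte differentiation protein). Rgs13 read 44.8, 42.2 and 88.9 in GFP+ cells and 1790, 2169 and 2269 in GFP- cells, a difference of -5.23 ± 0.50 (37.4-fold, adjusted p = 1.8e-05). Trpm5 read 90.4, 89.5 and 97.7 against 1372, 1727 and 1618, a difference of -4.08 ± 0.16 (16.9-fold, adjusted p = 1.8e-07). The rule that chose these 12 also required that the GFP+ and GFP- arrays do not overlap. With 32 added to every intensity, Bmx moved from -4.08 to -3.05, Tas2r108 from -3.84 to -2.91 and Sdr16c6 from -3.52 to -2.50, and all stayed called.

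Tuft cells are chemosensory epithelial cells that use the taste signalling cascade and make eicosanoids and interleukin 25. Of the 25 genes of the tuft cell list, 23 had a probe set and 19 were bright enough to be tested, 11 of them only through the GFP- arrays. Unfiltered, 22 of the 23 were lower in GFP+ cells and 0 were higher, with a median difference of -2.36. Hmx2 was the exception, at -0.02. Pou2f3, the transcription factor that defines the lineage, lay between 328 and 379 on the GFP+ arrays and between 1580 and 2146 on the GFP- arrays (-2.36). Among the signalling genes, Gnat3 differed by -4.38, Plcb2 by -4.23 and Gng13 by -2.0. Among the eicosanoid genes, Alox5 differed by -3.46, Alox5ap by -2.95, Ltc4s by -1.71 and Hpgds by -1.26. The summed intensity of the list was 2784 to 3141 in GFP+ cells and 14270 to 20150 in GFP- cells. In sorted bulk cells, fewer cells of a type and less RNA per cell cannot be told apart.

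Il25, Chat, Rgs21 and Ly6g6f stayed below the level required for a test. Il25 lay between 60.7 and 64.9 in GFP+ cells and between 105 and 121 in GFP- cells. Unfiltered, the knockout GFP+ cells had 1 of the 23 tuft genes higher and 1 lower than GFP+ cells, beside 7.08% and 10.3% of all probe sets. Bitter taste receptors form a family of 34 genes with probe sets here, of which 5 were bright enough for a test, all of them only through the GFP- arrays. Unfiltered, 25 of the 34 were lower in GFP+ cells and 0 were higher (median -0.57). Tas2r137, named after its values were seen, read 50.8, 50.9 and 55.6 in GFP+ cells and 304, 349 and 438 in GFP- cells (-2.78 ± 0.13, adjusted p = 4e-07). Vav1, a signalling protein better known from leukocytes, read 81.1, 71.1 and 92.3 against 390, 597 and 643 (-2.71 ± 0.17, adjusted p = 1.7e-06).

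Many genes of the skin barrier were lower in GFP+ cells too. Unfiltered, 14 of the 25 members with a probe set were lower and 3 higher in GFP+ cells, with a median of -0.81. Krtdap read 149, 124 and 277 in GFP+ cells and 2606, 1053 and 2132 in GFP- cells (-3.39 ± 0.51, adjusted p = 0.00035). Spink5, an epidermal protease inhibitor, read 194, 138 and 259 against 1787, 1491 and 2143 (-3.23 ± 0.36, adjusted p = 4.5e-05). Krt10, the keratin of the suprabasal epidermis, read 328, 318 and 463 against 2527, 1938 and 2420 (-2.65 ± 0.23, adjusted p = 8.6e-06). Ivl (involucrin, of the cornified envelope) differed by -2.42 ± 0.27.

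The skin genes were not of 1 kind. Klk5, a protease of skin shedding, went the other way and lay between 326 and 387 in GFP+ cells and between 84.4 and 157 in GFP- cells (1.55). Lor (loricrin) was also higher, by 0.54. Sprr1a, Klk7, Klk10, Lce3c and Casp14 were not called, with differences between -0.30 and 0.10. In the knockout GFP+ cells, 17 of the 25 were lower than in GFP+ cells and 0 were higher, unfiltered. The shares of all probe sets were 10.3% and 7.08%. Sbsn, Dmkn and Krtdap, which follow each other on chromosome 7, were all lower in GFP+ cells by at least 2-fold.

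**Figure D2:**
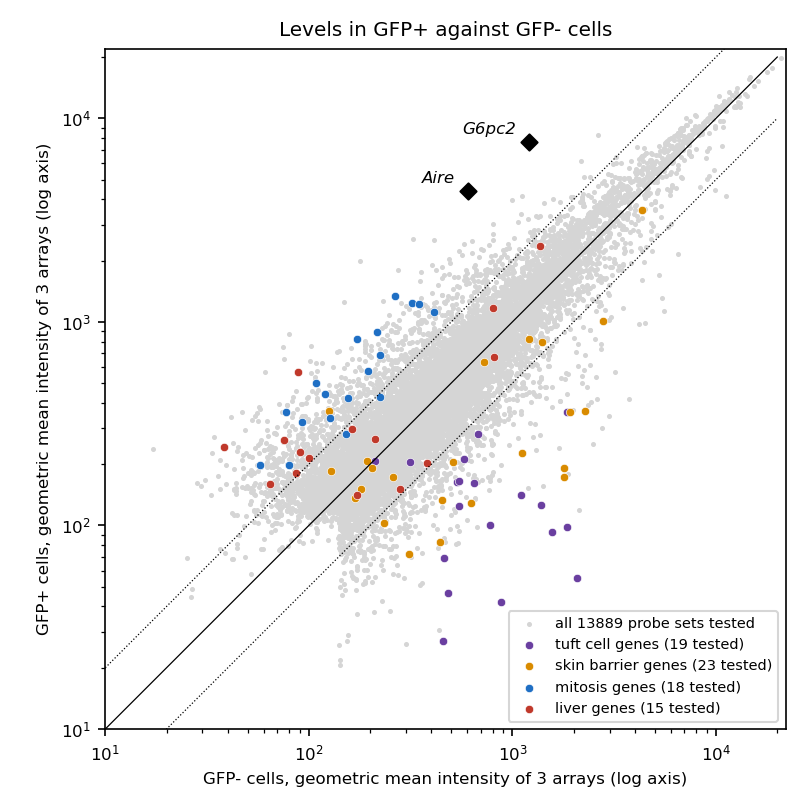
Geometric mean intensity of 3 GFP- arrays (x, log axis) against that of 3 GFP+ arrays (y, log axis) for the probe sets tested, with equality as a solid line and 2-fold differences dotted. The tested tuft cell genes lie below the line or, for Hmx2 (-0.02), on it, and the tested mitosis genes lie above it. Of these, 11 of 19 tuft genes were bright enough for a test only through the GFP- arrays. Of the mitosis genes, 7 of 18 were so only through the GFP+ arrays. The filter set the side of the line for such genes. Aire and G6pc2 are the diamonds.

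The promoters of the tuft and skin genes were described by their base composition. RefSeq promoters (GRCm38.p6) were matched for 16 of the 19 tuft genes and 19 of the 23 skin genes, and for 8875 of 10963 tested protein-coding genes. The median ratio of observed to expected CpG was 0.274 for the tuft genes and 0.17 for the skin genes, beside 0.746 for all. TATAAA stood on the gene's strand in 7 of 19 skin promoters (36.8%) and in 2 of 16 tuft promoters (12.5%), beside 6.5% of all. On the other strand it stood in none of either list and in 4.09% of all promoters. For the genes called at least 2-fold higher or lower as a whole, and for the mitosis genes, fewer than 80% had a promoter in the table, so the same check is void for them. Among those that were matched, the median CpG ratio was 0.469 for genes at least 2-fold higher and 0.473 for genes at least 2-fold lower, so a low ratio is not shown to be particular to genes that fell. These shares are descriptions with no test.

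The stretches below are the 100 bases before the start of 4 skin genes that hold the letters TATAAA there and of 4 tuft genes that do not. They were picked for these letters, as examples of a promoter with and without them, and do not stand for their lists, since 12 of the 19 skin promoters lack the letters and 2 of the 16 tuft promoters hold them. Capitals mark TATAAA. Krt10 is at chr11:99389365-99389464 (minus strand), Ivl at chr3:92573736-92573835 (minus), Sprr2d at chr3:92339040-92339139 (plus) and Krtdap at chr7:30787805-30787904 (plus). Trpm5 is at chr7:143094643-143094742 (minus), Gnat3 at chr5:17962470-17962569 (plus), Plcb2 at chr2:118728439-118728538 (minus) and Rgs13 at chr1:144177373-144177472 (minus).
Krt10: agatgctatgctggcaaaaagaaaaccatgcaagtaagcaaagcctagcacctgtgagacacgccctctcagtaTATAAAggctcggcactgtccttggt
Ivl: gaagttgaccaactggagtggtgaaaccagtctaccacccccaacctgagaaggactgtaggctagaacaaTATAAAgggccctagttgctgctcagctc
Sprr2d: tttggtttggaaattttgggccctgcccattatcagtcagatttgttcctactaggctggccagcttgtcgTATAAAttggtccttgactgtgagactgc
Krtdap: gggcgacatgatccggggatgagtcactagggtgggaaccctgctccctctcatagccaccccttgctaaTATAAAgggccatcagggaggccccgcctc
Trpm5: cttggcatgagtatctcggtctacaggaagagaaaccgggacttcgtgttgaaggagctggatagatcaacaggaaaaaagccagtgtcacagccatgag
Gnat3: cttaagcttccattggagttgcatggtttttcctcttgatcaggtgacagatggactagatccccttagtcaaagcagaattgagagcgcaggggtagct
Plcb2: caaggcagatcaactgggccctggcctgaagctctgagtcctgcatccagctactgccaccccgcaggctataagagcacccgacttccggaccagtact
Rgs13: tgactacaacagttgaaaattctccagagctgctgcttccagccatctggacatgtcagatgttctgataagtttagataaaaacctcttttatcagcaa

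Other programs of peripheral epithelia were also lower in GFP+ cells in part. Unfiltered, 9 of 15 secretory and goblet cell genes were lower and 1 higher (median -0.56). Clca1, a secreted goblet cell protein, read 376, 319 and 551 against 1958, 2431 and 3036 (-2.59 ± 0.34, adjusted p = 0.00014). Muc5b, a gel-forming mucin, fell by 1.69 on the log2 scale and Agr2, a mucin-folding enzyme, by 1.57. Muc5ac and Zg16 were not called, at 0.20 and 0.14. Of the 18 ciliated cell genes only 6 were bright enough for a test, and unfiltered 13 were lower and 0 higher (median -0.52), among them Mcidas, a regulator of multiciliated cells, at -0.91.

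Of 15 tested microfold cell genes, 3 were higher and 5 lower (median -0.19). Gp2, the bacterial receptor of microfold cells, read 509, 431 and 773 in GFP+ cells and 1913, 2016 and 1710 in GFP- cells (-1.76 ± 0.37, adjusted p = 0.0027). Icosl, the neighbour of Aire described above, is also in this list and went the other way at 1.65, its highest difference. So did Tnfrsf11b, the decoy receptor osteoprotegerin, at 0.97 ± 0.15 (adjusted p = 0.00046). Spib, a transcription factor of that lineage, overlapped between the groups at 0.02 ± 0.14. Of 17 neuroendocrine genes, 2 were higher and 4 lower, unfiltered. Insm1, the lineage regulator, was higher (0.77 ± 0.13, adjusted p = 0.00084). Chga, Snap25 and Scg5 were called lower, with differences from -0.51 to -0.36. Each lost its call without GFP+ replicate 7 or without GFP- replicate 7, Snap25 and Scg5 also without GFP+ replicate 6, and Scg5 also without GFP- replicate 6 or 8 (adjusted p between 0.052 and 0.18).

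Genes of internal organs differed from list to list. Of 24 liver genes, 14 were higher and 2 lower, unfiltered (median 0.53), and 7 of the 15 bright enough for a test were so only through the GFP+ arrays. Cyp1a2, a liver cytochrome P450, read 574, 640 and 492 in GFP+ cells and 89.5, 81.7 and 95.7 in GFP- cells (2.67 ± 0.11, adjusted p = 2.5e-07). Fgg, a fibrinogen chain, read 226, 239 and 270 against 44.3, 41.4 and 31.0 (2.67 ± 0.14, adjusted p = 7.2e-07). The 3 GFP+ arrays stood above all GFP- arrays in both genes. In knockout GFP+ cells Cyp1a2 read 28.3, 30.7 and 30.7. Unfiltered, 17 of the 24 liver genes were lower there than in GFP+ cells, beside 10.3% of all probe sets.

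Of 25 pancreas and endocrine genes, 13 were higher and 2 lower, unfiltered (median 0.54), led by Nts (neurotensin, 1.5 ± 0.23), Calcb (a calcitonin gene-related peptide, 1.43 ± 0.25), Pomc (the corticotropin precursor, 1.37 ± 0.19) and Gcg (glucagon, 1.33 ± 0.15). Their largest adjusted p was 0.0009. Calcb was the one of these 4 that was not lower in the knockout, where it read 5597, 4974 and 5967 beside 5046, 3596 and 3112 in GFP+ cells. Of 23 nervous system genes, 10 were higher and 1 lower, unfiltered (median 0.22), among them Calb1 (1.92 ± 0.21), Cntn1 (1.83 ± 0.15) and Gad1, the enzyme of GABA synthesis (1.26 ± 0.12). Of 24 muscle genes, 10 were higher and 2 lower, unfiltered (median 0.10), among them Ttn (titin, 1.36) and Actc1 (cardiac actin, 1.26).

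Milk and gut genes differed in their counts. Of 25 salivary, lacrimal, prostate and milk genes, 15 were higher and 2 lower, unfiltered (median 0.62). Csn2, beta-casein, read 3734, 3842 and 4342 in GFP+ cells and 1070, 1187 and 772 in GFP- cells (2.00 ± 0.15, adjusted p = 3.5e-06). Csn1s2a, another casein and its neighbour on chromosome 5, differed by 2.11 ± 0.24. In the knockout GFP+ cells, Csn2 read 4417, 4563 and 4621 whereas Csn1s2a read 24.3, 20.4 and 20.5, beside 319, 312 and 530 in GFP+ cells. Bpifa1, an airway secretory protein, was lower in GFP+ than in GFP- cells (-2.17 ± 0.37, adjusted p = 0.00075).

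Of 25 exocrine pancreas and gut genes, 5 were higher and 6 lower, unfiltered (median -0.07), beside 20.1% and 16.2% of all probe sets. Cela3b and Cel, digestive enzymes, were higher by 1.25 and 1.01, and Muc13 (-1.60) and Pigr, the polymeric immunoglobulin receptor (-1.48), were lower. Of 19 kidney and lung genes, 8 were higher and 3 lower, unfiltered (median 0.14). Of the 8 bright enough for a test, 3 were called higher, and 1 with the replicate numbers as a block or under quantile normalization. Scgb1a1, the airway club cell secretoglobin, read 356, 356 and 685 in GFP+ cells, 826, 1259 and 1508 in GFP- cells and 30.9, 21.97 and 11.3 in knockout GFP+ cells. The GFP+ minus GFP- difference was -1.39 ± 0.37 (adjusted p = 0.0097). Only 3 of 24 testis genes were bright enough for a test.

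**Figure D3:**
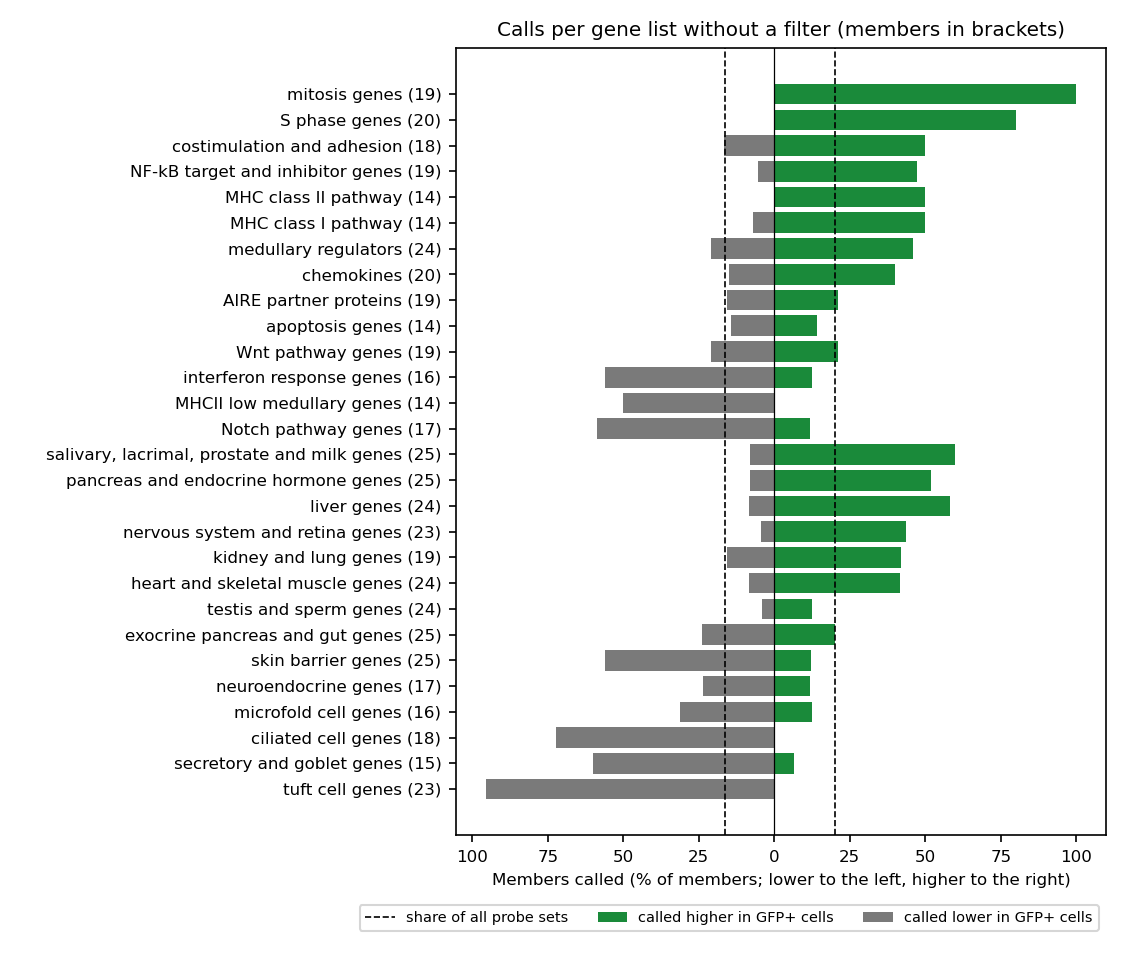
Share of the members of each gene list with a probe set that were called higher (green, to the right) or lower (grey, to the left) in GFP+ against GFP- cells, in percent, in the fit without a filter, for lists of cell cycle, pathway, organ and mimetic cell genes. Dashed lines give the shares of all probe sets, 20.1% higher and 16.2% lower; mitosis genes (19 of 19 higher) and tuft cell genes (22 of 23 lower) are the extremes.

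The cell cycle genes rose in GFP+ cells. All 19 mitosis genes with a probe set were higher, unfiltered, with differences between 0.64 and 2.34 and a median of 1.78. Ccna2 (cyclin A2) read 1354, 1313 and 1363 in GFP+ cells and 233, 231 and 345 in GFP- cells (2.34 ± 0.16, adjusted p = 2.6e-06). Kif11, a spindle motor, and Bub1, a checkpoint kinase, differed by 2.26 ± 0.16 and 2.22 ± 0.19. Of 20 S phase genes, 16 were higher and 0 lower, unfiltered (median 0.76), led by Uhrf1 (1.70 ± 0.16) and Rrm2, a subunit of ribonucleotide reductase (1.65 ± 0.13). Unfiltered, knockout GFP+ cells had 1 of the 19 mitosis genes and 2 of the 20 S phase genes higher than GFP+ cells and 0 lower. Of all probe sets, 7.08% were higher and 10.3% lower. Of 52 tested genes for ribosomal proteins, 33 were higher and 0 lower, with a smaller median of 0.38.

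Regulators of the medulla moved in both directions. Of 24 tested, 11 were higher and 6 lower (median 0.21). Cd40, a receptor that drives NF-kB and medullary growth, read 2763, 3434 and 2912 in GFP+ cells and 840, 907 and 680 in GFP- cells (1.91 ± 0.13, adjusted p = 2.1e-06). Sirt1, a deacetylase that acts on AIRE, read 3801, 3384 and 3033 against 1476, 1029 and 875 (1.63 ± 0.19, adjusted p = 6.6e-05). Irf4 (1.11), Traf6 (1.06), Foxn1, the master regulator of thymic epithelium (0.79), Nfkb2 (0.69), Relb (0.62) and Fezf2 (0.53) were also higher, with a largest adjusted p of 0.011.

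Fezf2, which directs its own set of tissue genes, kept high levels in both groups, at 4110, 4592 and 4920 in GFP+ cells and 3171, 3270 and 2961 in GFP- cells. Klf4 (-1.39), Ehf (-1.14), Elf3 (-1.09), Trp63 (-0.95) and Ltbr, the lymphotoxin receptor (-0.68), were lower, with a largest adjusted p of 0.0067. The calls of Tnfrsf11a (RANK, 0.47), Irf8 (0.42) and Pax1 (-0.34) depended on single arrays. Tnfrsf11a lost its call without GFP+ replicate 7 or GFP- replicate 6, Irf8 without either replicate 8, and Pax1 without any of the GFP+ arrays or without GFP- replicate 6 or 8 (adjusted p between 0.074 and 0.13). Under quantile normalization Tnfrsf11a and Irf8 were not called (adjusted p = 0.096 and 0.14). Prdm1 was not called at -0.50 ± 0.41 (adjusted p = 0.34), and with the replicate numbers as a block its adjusted p was 0.014. Map3k14, Chd4, Grhl3, Hnf4a, Hipk2 and Spib were not called, with differences between 0.02 and 0.23.

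Among proteins known to bind AIRE, 4 of 18 tested genes were higher and 3 lower. Neither count is above the shares of all tested probe sets, 28.9% and 20.5%, so the list as a whole does not stand out. Top2a, which is also a mitosis gene, differed by 2.04 ± 0.21, Rad50 by 0.77 ± 0.15 and Parp1 by 0.72 ± 0.11 (largest adjusted p = 0.0022). Atf7ip, which recruits AIRE to methylated DNA, differed by -0.52 ± 0.10 (adjusted p = 0.0016), and its other tested probe set by -0.31.

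The class II genes H2-Aa, H2-Ab1 and H2-Eb1 differed by 0.23 or less between these groups, both sorted as MHCIIhi. Several accessory genes of the pathway rose. H2-Eb2, a further class II gene, stood with Btnl2 and Btnl1 in a run of genes at least 2-fold higher. H2-Aa read 10466, 10182 and 10897 in GFP+ cells and 10052, 10130 and 9526 in GFP- cells (0.09 ± 0.09, adjusted p = 0.42). H2-Ab1 differed by 0.16 ± 0.08 and Cd74, the invariant chain, by 0.05 ± 0.08, and neither was called. H2-Eb1 was called at 0.23 ± 0.08 (adjusted p = 0.044), a call lost without any 1 of the 6 arrays (adjusted p between 0.052 and 0.13), under quantile normalization (adjusted p = 0.4) and with the replicate block (adjusted p = 0.05).

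Of the 14 genes of the pathway, 8 were higher and 0 lower (median 0.41). Ciita, the transactivator of the class II genes, read 1249, 1604 and 1509 in GFP+ cells and 423, 669 and 474 in GFP- cells (1.5 ± 0.16, adjusted p = 4.1e-05). H2-Ob and H2-Oa, which restrain peptide exchange, differed by 1.44 ± 0.17 and 0.74 ± 0.11, and H2-DMa, which promotes it, by 0.58 ± 0.12. The endosomal enzymes Ctsh (1.34 ± 0.09), Ctss (1.19 ± 0.09) and Ifi30 (1.11 ± 0.10) were higher. Ctsl, the cathepsin of the cortex, was not called at -0.59 ± 0.24, and neither were Ctsb (-0.25 ± 0.10) and Lgmn (0.16 ± 0.24). Ctsb reached an adjusted p of 0.049 with the replicate block, 0.0069 under quantile normalization and 0.035 without GFP+ replicate 6. Ctsl reached 0.019 under quantile normalization, 0.038 without GFP+ replicate 6 and 0.01 without GFP- replicate 7. Of 14 class I genes, 7 were higher and 1 lower (median 0.37), led by Psme2, a proteasome activator (1.17 ± 0.13).

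Of 16 tested genes for costimulation and adhesion, 8 were higher and 2 lower (median 0.50). Besides Cd40 and Icosl, Tnfrsf9 (4-1BB) read 873, 1001 and 857 in GFP+ cells and 286, 272 and 208 in GFP- cells (1.84 ± 0.13, adjusted p = 2.8e-06). Cd86 differed by 1.34 ± 0.16, Icam1 by 0.80 ± 0.11 and Cd80 by 0.74 ± 0.13 (largest adjusted p = 0.0011), and the other Cd80 probe set by 1.09. Lgals9 (galectin 9), which was lower, read 1008, 972 and 1028 against 2610, 2620 and 3289 (-1.49 ± 0.15, adjusted p = 1.9e-05). The calls of Pdcd1lg2 (0.59), Kitl (0.41) and Il7 (-0.49) were not stable. Pdcd1lg2 lost its call without GFP+ replicate 8 (adjusted p = 0.052). Kitl lost its call without GFP+ replicate 7 or 8 or GFP- replicate 7 or 8, and Il7 without GFP+ replicate 6 or 7 or GFP- replicate 7 or 8 (adjusted p between 0.064 and 0.15). Cd274 (PD-L1, -0.22), Vcam1 (0.24), Flt3l (0.12), Tnfsf11 (0.07), Tnfsf15 (0.11) and Tnfsf9 (0.92 ± 0.40) were not called, and Tnfsf9 had an adjusted p of 0.0015 with the replicate block and 0.033 without GFP- replicate 6. Cd274 reached 0.043 under quantile normalization.

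**Figure D4:**
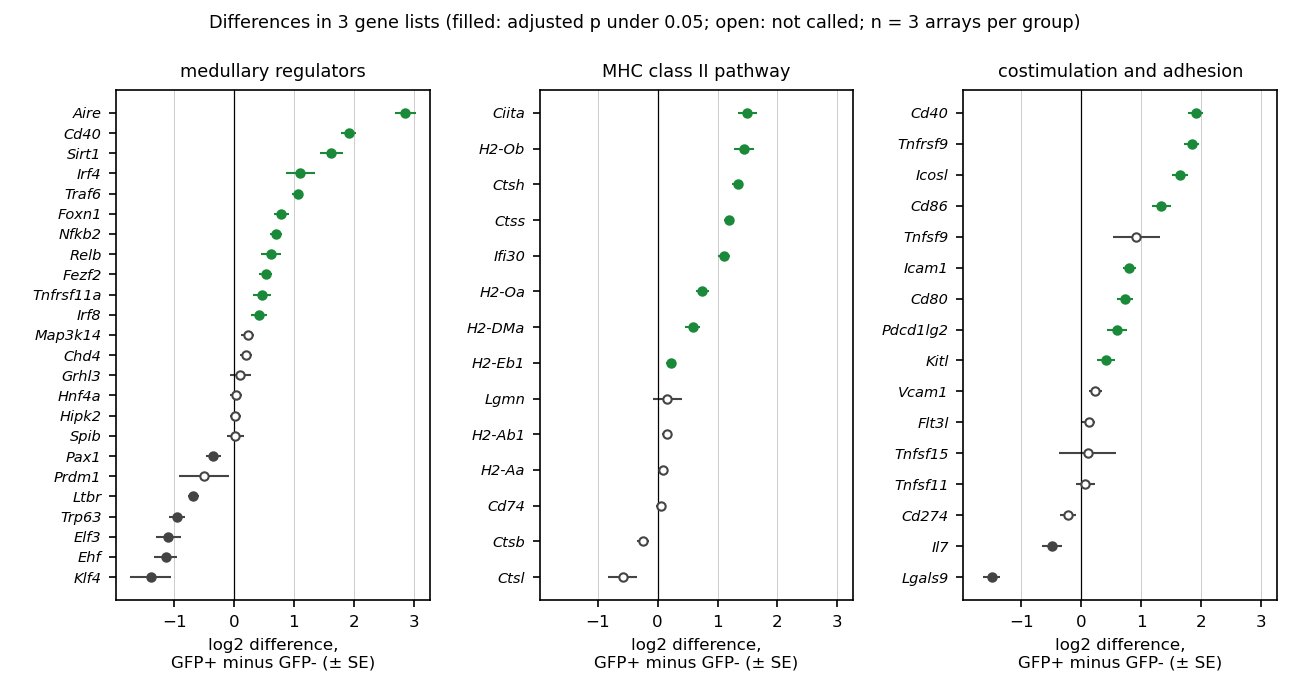
Log2 difference GFP+ minus GFP- with its SE (n = 3 arrays per group) for every tested gene of the lists of medullary regulators, MHC class II pathway and costimulation and adhesion; filled points have an adjusted p under 0.05. Within their lists, Aire (2.86), Ciita (1.5) and Cd40 (1.91) are the highest and Klf4 (-1.39), Ctsl (-0.59) and Lgals9 (-1.49) the lowest.

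Chemokine genes were higher in 8 and lower in 2 of 16 tested (median 0.42), and lower in 5 with the replicate block. Cxcl13, which draws B cells, read 2388, 2590 and 2612 in GFP+ cells, 375, 584 and 316 in GFP- cells and 557, 583 and 320 in knockout GFP+ cells. The GFP+ minus GFP- difference was 2.62 ± 0.25 (adjusted p = 1.7e-05). Ccl17, a ligand of CCR4, and Xcl1, which draws thymic dendritic cells, differed by 1.90 ± 0.20 and 1.83 ± 0.12. Ccl22, the other CCR4 ligand, was called at 0.93 ± 0.26 (adjusted p = 0.012) and not without GFP+ replicate 8 (adjusted p = 0.051). The knockout minus GFP+ differences were -1.86 for Ccl17, -2.32 for Xcl1 and -2.22 for Ccl22. These genes were named as higher on the GFP+ arrays, which the knockout comparison shares. Of the 16 chemokine genes, 10 were lower in the knockout, beside 9.66% of all tested probe sets.

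Of 17 genes of the Notch pathway, 10 were lower and 2 higher in GFP+ cells, unfiltered (median -0.81). Hes1, a direct Notch target, read 272, 145 and 251 in GFP+ cells and 610, 492 and 606 in GFP- cells (-1.40 ± 0.26, adjusted p = 0.0013). Heyl, another target, and Jag1, a ligand, differed by -1.23 ± 0.14 and -1.21 ± 0.09. Dll4, a ligand better known from the cortex, went the other way at 0.92 ± 0.14 (adjusted p = 0.00034).

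Of 19 tested NF-kB target and inhibitor genes, 9 were higher and 1 lower (median 0.45), led by Nfkbie (1.15 ± 0.11), and with the replicate block 11 were higher and 4 lower. The 1 lower gene, Nfkbiz (-1.03 ± 0.30), had groups that overlapped by array and lost its call without GFP+ replicate 7 or 8 or GFP- replicate 6 (adjusted p between 0.053 and 0.06). Of 15 tested interferon response genes, 8 were lower and 2 higher (median -0.36), led by Irf7 (-1.36 ± 0.17) and Ifit3 (-1.20 ± 0.32). Of 19 immediate early and stress genes, 5 were lower and 1 higher, among them Egr3 (-1.43 ± 0.27) and, higher, Gadd45b (0.92 ± 0.17). With the replicate block, 10 of the 19 were lower. Of 19 Wnt genes 4 were higher and 4 lower, unfiltered, and of 13 tested apoptosis genes 2 and 2, with Fas, the death receptor, at 1.42 ± 0.13 (adjusted p = 1.2e-05).

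Genes of MHCII low medullary cells and of epithelium in general were level or lower in GFP+ cells. Of 12 tested MHCII low genes, 6 were lower and 0 higher (median -0.44), and 7 and 1 with the replicate block. Lifr, a cytokine receptor, read 336, 261 and 352 against 1109, 1070 and 1815 (-2.04 ± 0.25, adjusted p = 9.5e-05), and Krt5, a basal keratin, differed by -1.44 ± 0.29. Of 14 tested epithelial markers, 7 were lower and 0 higher (median -0.48). Epcam was present on all arrays, at 1928 to 1946 in GFP+ cells and 1430 to 2160 in GFP- cells, and it was not called. Psmb11, which defines cortical epithelium, lay between 71.8 and 93.4 on the 6 arrays and was too dim to test.

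Markers of other cell types that such a gate can hold were measured on the same arrays. Ptprc, the CD45 gene by which leukocytes were gated out, lay between 112 and 214 on the 6 arrays and was not called (-0.32), and with the replicate block its adjusted p was 0.034. Of 15 thymocyte markers, 1 was higher (Cd4) and 0 lower, unfiltered, with sums of 1475 to 2556 in GFP+ and 1472 to 2468 in GFP- cells, and Cd3d, Rag2 and Dntt were below the level for a test. Of 11 B cell markers, 6 were higher and 0 lower, unfiltered, among them Cr2, Blk, Blnk and Ebf1, with sums of 3076 to 3343 against 2242 to 2557, while Ms4a1, Cd79a and Pax5 were too dim to test. Of 13 dendritic cell markers, 3 were higher and 1 lower, unfiltered, with sums of 7723 to 8462 against 7529 to 8319, and Itgax, Xcr1 and Clec9a were too dim to test. Flt3, called higher among the tested markers, lost its call with the replicate block (adjusted p = 0.068) and without any 1 GFP+ array or GFP- replicate 7 (adjusted p between 0.067 and 0.14). Sirpa, called lower among them, lost its call without GFP+ replicate 6 or 7 or GFP- replicate 7 or 8 (adjusted p between 0.073 and 0.13).

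Of 12 macrophage markers, 5 were higher and 0 lower, unfiltered, with sums of 6792 to 7432 in GFP+ cells, 5022 to 6369 in GFP- cells and 4912 to 5288 in knockout GFP+ cells. Adgre1 (F4/80) read 175, 191 and 162, 36.3, 44.5 and 28.2, and 37.3, 34.3 and 50.9 in the same order (GFP+ minus GFP- 2.30 ± 0.18, adjusted p = 5.4e-06). Mrc1, the mannose receptor, and C1qb differed by 1.71 ± 0.17 and 1.00 ± 0.26, while Lyz2 and Cd68 were not called, at 0.17 and -0.04, and Fcgr1, Mertk and Vsig4 were too dim to test. Whether these levels came from macrophages among the sorted cells was not tested. Of 10 tested pan-leukocyte markers 3 were higher and 2 lower, and of 10 tested fibroblast and mural markers 4 and 0 (4 and 1 with the replicate block). Of 12 endothelial markers 1 was higher and 3 lower, unfiltered, and of 2 tested red cell markers 2 and 0. Of the 4 fibroblast and mural genes, Col1a1 lost its call without GFP+ replicate 6 or 7 or GFP- replicate 7 or 8, and Dcn without any 1 of the arrays but GFP- replicate 7 (adjusted p between 0.054 and 0.13). Xist and the Y-linked genes Uty, Kdm5d and Eif2s3y were present on all 6 arrays, with Xist between 929 and 2175, and 0 of these 4 were called. Kdm5d reached an adjusted p of 0.029 with the replicate block (-0.34).

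Some genes called at least 2-fold lay side by side. Of 584 higher genes with a tested neighbour, 117 (20.03%) stood next to another such gene, beside 8.83% of all 9275 tested genes with a neighbour. Of 430 lower genes, 69 (16.05%) stood next to another lower one, beside 6.49% of all. Besides the runs at Aire, G6pc2, the caseins and Krtdap, chromosome 14 held Mustn1, Itih4 and Itih3, and chromosome 3 held S100a14, S100a16, S100a3 and S100a2. Families of similar genes lie together and overlapping transcripts can share a signal, and neither was set apart in these counts, which carry no test.

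The median SD of log2 intensity over all tested probe sets was 0.12 in GFP+ and 0.15 in GFP- cells. Among genes at least 2-fold higher it was 0.16 and 0.20, and among those at least 2-fold lower 0.17 and 0.23. Of the genes at least 2-fold higher, 47.0% lay below the median level in GFP- cells, and of those at least 2-fold lower, 38.7% lay below it in GFP+ cells.

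The other thymic epithelial groups of the series give the range of these genes, with no test, since their sorter and sex differed. Aire read 4298 on the single MEChi array of 5 weeks and 3825 and 4339 at 8 weeks, and 163 to 345 in the MEClo groups. Dnmt3l read 261 at 5 weeks and 358 and 393 at 8 weeks in MEChi cells, and 38.0 to 50.0 in MEClo cells. Trpm5 read 481 at 5 weeks and 418 and 567 at 8 weeks in MEChi cells, and 1465 to 3072 in MEClo cells. Krt10 read 901 at 5 weeks and 869 and 1151 at 8 weeks in MEChi cells. For Dnmt3l, Trpm5 and Krt10 the MEChi arrays lay between the GFP+ and GFP- arrays, and for Aire they lay within the range of the GFP+ arrays. In cortical CEChi cells, Aire read 133 and 141 and Trpm5 64.5 and 78.3.

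**Figure D5:**
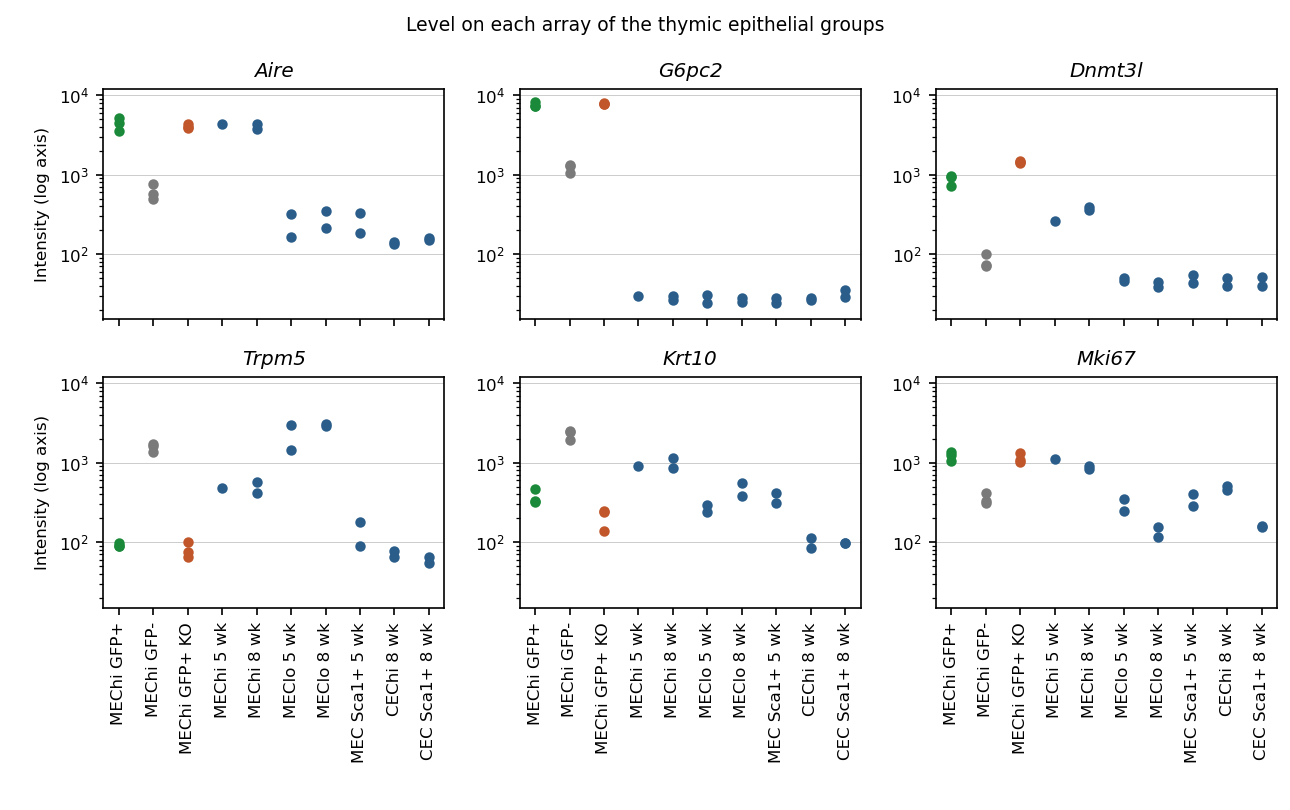
Intensity (log axis) of 6 genes on each array of the thymic epithelial groups, with GFP+ in green, GFP- in grey, knockout GFP+ in orange and the other groups in blue; each point is 1 array. G6pc2 lies between 24.3 and 35.1 in every blue group, and Trpm5 reaches its highest levels in the MEClo groups (1465 to 3072).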

How the data were processed

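Intensities of 24922 probe sets on 145 Affymetrix arrays were used as the authors deposited them, as RMA values on a linear intensity scale, made with Affymetrix Power Tools per the submitters' processing notes, which the notes give without versions. RMA pulls low values toward background and shrinks folds of dim genes. Gene symbols came from the platform annotation: 21425 probe sets had 1 symbol, 1399 had several and 2098 were unlisted, and only the first kind were named.

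Log2 intensities of the 9 arrays (GFP+, GFP- and knockout, 3 each) were fitted with limma 3.58.1 in R 4.3.3, with a mean per group and no covariate. Tests were two-sided, with Benjamini-Hochberg adjustment over all probe sets tested. No 2 arrays held identical values. A gene with several probe sets is given by the brightest.

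Genes named were the 12 largest rises and 12 largest falls whose groups do not overlap, up to 4 called genes per list, and every tested gene of 3 lists; predicted genes, small RNAs and antigen receptor segments were left out of the first 24, and other genes are said to be chosen after their values were seen. The members and the lists were chosen with earlier results of these data known.

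Replicate numbers 6, 7 and 8 are shared by the 2 groups. Across tested probe sets, deviations from the group means of equal numbers correlated at r = 0.52, 0.47 and 0.20, and of unequal numbers at 0.06 or less. The numbers were therefore used as pairs in an alternative fit with a replicate block. The main fit ignored them, and all values not marked as blocked are unpaired. Blocked values are printed where they change the call of a gene named or move the count of a list by over 1.5 times.

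Alternatives were another filter, quantile normalization, an offset of 32 before the log, other sets of arrays, other variance models, the replicate block and leaving out each array.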

Additional observations from a re-analysis of the deposited data

How the results depend on the processing

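The count of probe sets called between GFP+ and GFP- cells, 6865, stayed within 1.5 times of itself under no filter (9032), quantile normalization (6985), an offset of 32 (6837), the 6 arrays alone (6525), all arrays in a single fit (6110), trend and robust variances (6844), and without any 1 of the 6 arrays (5829 to 6463). The replicate block, with numbers 6, 7 and 8 as pairs, called 7807. Quantile normalization split its calls into 3626 higher and 3359 lower, against 4012 and 2853 in the main fit. The filter at the 75th percentile tests fewer probe sets and called 4134 (2673 higher and 1461 lower, with 526 and 371 of at least 2-fold). Between knockout and GFP+ cells, 2647 were called, 4326 with no filter, 1412 at the 75th percentile, and 1685 to 2416 without 1 knockout array, the lowest without knockout replicate 2. Without 1 GFP+ array the count was 1839 to 2247.

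Quantile normalization turned 3 uncalled differences, to -0.12 for Spib, -0.11 for Hipk2 and -0.0145 for Cd74. Leaving out 1 array turned the sign of others, all uncalled. Their values then ranged from -0.11 to 0.11 for Spib, -0.0147 to 0.0466 for Hipk2, -0.0279 to 0.32 for Grhl3, -0.0393 to 0.0705 for Hnf4a, -0.0777 to 0.31 for Lgmn, -0.0682 to 0.21 for Tnfsf11, -0.34 to 0.62 for Tnfsf15, -0.57 to 0.0483 for Xist and -0.15 to 0.037 for Eif2s3y. The causes were not tested. Counts of lists move with the filter. Among members bright enough for a test, 6 of 9 muscle genes were higher and 0 lower, 2 of 17 exocrine pancreas and gut genes were higher and 7 lower, 8 of 12 salivary, lacrimal, prostate and milk genes were higher, and 5 of 6 ciliated cell genes were lower. Over such members, the replicate block called 4 exocrine pancreas and gut genes, 2 neuroendocrine genes (1 without it), 2 thymocyte markers (1 without it) and 1 red cell marker (2 without it) higher. The medians of the tested members of lists kept their sign under quantile normalization for every list named by a median in the text. The unfiltered medians were not checked in this way. No detection values come with the intensities, so no difference is given as a lower bound.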

Other observations

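Cytokine genes named here were chosen after their values were seen. Il5 and Il9, known from type 2 and mast cell responses, read 206, 235 and 240, and 533, 580 and 610, in GFP+ cells and 28.7, 48.7 and 26.8, and 117, 154 and 72.9, in GFP- cells (2.76 ± 0.20 and 2.39 ± 0.21, largest adjusted p by limma 1.1e-05). In knockout GFP+ cells they read 43.8, 34.9 and 37.1, and 44.9, 44.7 and 43.6. Il13 read 2196, 2305 and 2197 in GFP+ cells, 724, 721 and 318 in GFP- cells and 4231, 3644 and 3788 in the knockout. Gzmb, a protease of cytotoxic cells, differed by 2.59 ± 0.15 and read 35.2, 31.3 and 32.4 in the knockout. Ccl11 (eotaxin) and Il10 were lower in GFP+ than in GFP- cells, by -3.12 ± 0.35 and -2.79 ± 0.24, and Cyp2f2, an airway cytochrome P450, by -3.16 ± 0.30 (largest adjusted p = 4.6e-05).

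Keratin genes split. Of 52 with a probe set, 11 were higher and 15 lower in the fit without a filter. Of all probe sets, 20.1% were higher and 16.2% lower in that fit, so the count of higher keratins does not stand out. Krt24, Krt20 and Krt9, named after their values were seen, were higher by 2.30 ± 0.15, 1.81 ± 0.13 and 1.63 ± 0.26, and Krt23 lower by -1.67 ± 0.16. Krt20, a gut keratin, read 605, 715 and 747 in GFP+ cells against 164, 234 and 197. In that fit, 10 of 18 S100 genes were higher and 2 lower (median 0.59), and 0 of 7 Clca genes were higher and 5 lower (median -1.03). Of 1027 odorant receptor genes with a probe set, 11 were bright enough for the filtered test. Without the filter, 29 were higher and 63 lower, beside 20.1% and 16.2% of all probe sets. The family was thus called less often than probe sets at large.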
